A study of Homo sapiens with 4 samples.

Results

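The ubiquitin-specific proteases (USPs) were examined in HepG2, an established liver cancer line, after inhibition of the microRNA miR-191. Members were the genes with a probe set annotated to exactly 1 symbol that begins with USP and a digit, without the USP17L genes, USP6NL and pseudogenes. This gave 50 genes among 18417 with 1 symbol, of which 49 are protease genes and 1, USP27X-DT, is a long noncoding RNA gene. A gene with several probe sets was represented by the brightest. No row carried the symbol USP10 or USP32, and these genes were not analysed here.

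Cultures that received anti-miR-191, an oligonucleotide that blocks miR-191, were set against cultures that received a negative control oligonucleotide of the same kind, on 4 one-colour arrays of total RNA, 2 per group. According to the series text the treatment was repeated in 2 independent experiments, so each experiment holds 1 anti-miR-191 array and 1 control array. Both groups were transfected with Oligofectamine, and no untransfected culture, dose or time after transfection is given in the labels. A single cell line was used, and in these bulk samples fewer expressing cells and less RNA per cell cannot be told apart.

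USPs are the largest family of deubiquitinases, cysteine proteases that remove ubiquitin from proteins and so counter the ubiquitin ligases that mark proteins for degradation or signalling. Members act on histones, on DNA repair factors, on p53 and MYC, on receptors at endosomes and at the proteasome itself. Some family members lack catalytic residues and serve as structural parts of larger complexes. In liver and liver cancer, deubiquitination sets the stability of signalling proteins and of transcription factors.

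The inhibitor in this study was directed against miR-191, whose mature strands are shown because they define the treatment. The capitals mark the seed, bases 2 to 8 from the 5' end, by which a microRNA recognises messenger RNAs. The gene lies on the minus strand of chromosome 3, and the sequences are those of RefSeq on build GRCh38.p14.
hsa-miR-191-5p: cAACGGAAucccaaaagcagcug
hsa-miR-191-3p: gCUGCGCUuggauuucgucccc
Signal of the MIR191 precursor was 5.22 and 5.14 after anti-miR-191 and 4.97 and 4.75 in controls, in experiments 1 and 2. The probe set does not tell the mature strand from the precursor, so it does not check the inhibition.

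Levels below are the deposited RMA intensities on the log2 scale. Changes are anti-miR-191 minus control on that scale, computed within each experiment, and the mean of both is given ± the standard error of limma's paired fit, in which the experiment is a block (n = 2 pairs). The words rose and fell are kept for an adjusted p under 0.05 in that fit, over all 14147 genes tested. The unpaired fit, which leaves out the experiment, is given beside it. With 1 residual degree of freedom the paired fit leans on the spread of all genes. In simulated data in which gene spreads were wider than limma assumes, well over the nominal share of its calls were false. Far fewer genes were changed there than were called here, so that share may differ in these data. The unpaired value beside each call therefore matters. Probe sets differ in affinity, so levels of different genes give no order of abundance.

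The array medians lay between 4.37 and 4.43. The interquartile range was 3.38 and 3.43 after anti-miR-191 and 3.18 and 3.24 in controls, so the spread of the values moved with the group. Its part in the changes was not tested beyond quantile normalization, which makes the ranges equal. All 8 liver markers measured, among them APOA1 (11.6 in controls) and SERPINA1 (10.9), lay above the limit of 3.41 below which rows were left out as dim. TTR, which encodes the carrier transthyretin, fell by 1.04 (limma's adjusted p = 0.0057 paired and 0.038 unpaired), and the other 7 did not pass. The log2 values of the 8 added up to 77.9 and 74.2 after anti-miR-191 and 78.7 and 80.4 in controls, in experiments 1 and 2. The experiments differed, with changes of 0.48 and -0.93 for ALB, 0.16 and -1.24 for AFP and 0.02 and -1.09 for APOB. FGB (0.01 and -0.88) and TF (0.03 and -0.35) differed likewise, and APOA1, SERPINA1 and TTR were lower in both. Of 14 markers of blood cells, endothelium, fibroblasts and squamous epithelium 3 (PTPRC, KDR and PECAM1) were dim and not tested, and of the other 11 none passed limma's paired fit. The log2 values of the 14 added up to 62.3 and 61.7 after anti-miR-191 and 62.2 and 61.2 in controls. In controls they ranged from 2.62 (PTPRC) to 9.24 (LYZ), with COL1A1 next at 6.02.

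Of the 49 protease genes, 41 passed the limit on dim rows and were tested. Of these 41, 6 rose and 0 fell after anti-miR-191 (14.6% and 0%). Over all genes tested 10.1% rose and 3.77% fell. With 6 genes, that share lies near the background. Without adjustment (p under 0.05), the paired limma fit had 14 USPs higher (34.1%) and 0 lower, where the background was 19.1% and 8.98%. The unpaired fit called 2 higher (4.88%) and 0 lower (background 3.2% and 0.714%). Without adjustment it had 11 higher (26.8%) and 0 lower (background 15.3% and 6.28%). The risen genes were USP36, USP38, USP39, USP42, USP4 and USP40, and only USP36 and USP38 passed in both fits. In the paired fit, quantile normalization between arrays left 3 of them (USP36, USP38 and USP42).

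**Figure D1:**
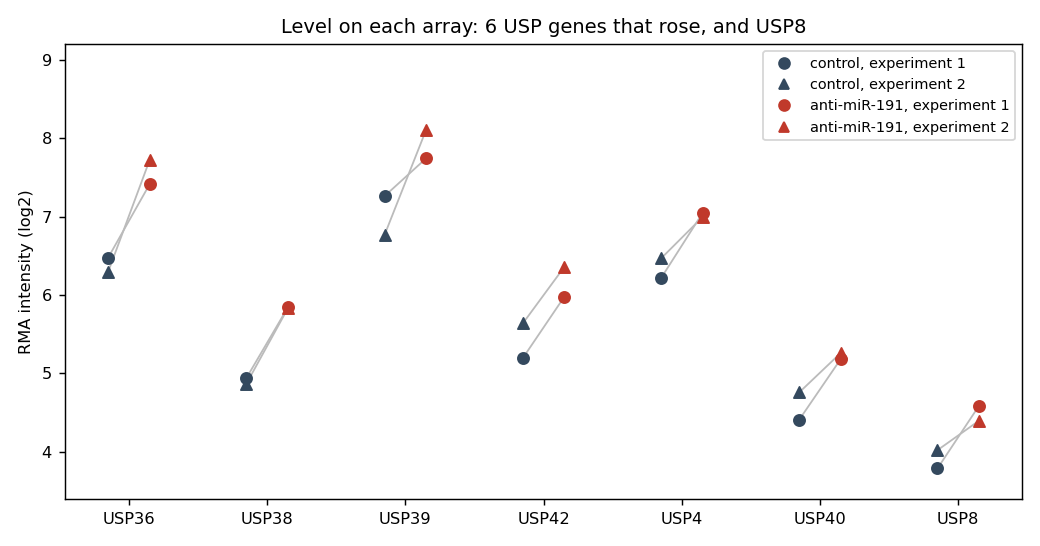
RMA intensity (log2, vertical axis) of the 6 USP genes that rose and of USP8 on each of the 4 arrays, with lines joining the control and the anti-miR-191 array of the same experiment. For each of these 7 genes both anti-miR-191 arrays lay above both control arrays, and USP8 did not pass (adjusted p = 0.053 in the paired fit).

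Members are given by role below. Over all genes tested 10.1% rose and 3.77% fell, and 19.1% and 8.98% were higher and lower without adjustment. The role groups are too small for their counts to be told from these shares. Each member was assigned by hand to a single role group, so a group leaves out members with a further role. In the group for the stability of p53 or MYC, 2 of 5 tested rose and 0 fell. USP7, which also controls p53, was counted with histones and chromatin and did not pass (limma's paired adjusted p = 0.278). USP36, on chromosome 17, is a nucleolar deubiquitinase that stabilises MYC and proteins of ribosome production. It read 7.41 and 7.72 after anti-miR-191 and 6.48 and 6.30 in controls, in experiments 1 and 2. The groups did not overlap, and USP36 rose 2.27-fold (1.18 ± 0.17, limma's adjusted p = 0.0062 paired and 0.029 unpaired). Its close relative USP42, on chromosome 7, removes ubiquitin from p53. It read 5.98 and 6.36 after anti-miR-191 and 5.20 and 5.64 in controls. Both arrays of experiment 2 read higher than those of experiment 1, and the change was nearly the same in each (0.78 and 0.72). USP42 rose 1.68-fold (0.75 ± 0.14, limma's adjusted p = 0.016), but not in the unpaired fit (adjusted p = 0.116). The other members of this group were USP2 (0.11 ± 0.16), USP5 (0.10 ± 0.15) and USP24 (0.21 ± 0.16), which did not pass.

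Among members tied to NF-kB, interferon and innate immunity, 1 of 5 tested rose. USP38, on chromosome 4, acts on the innate immune kinase TBK1. It read 5.84 and 5.83 after anti-miR-191 and 4.94 and 4.87 in controls. The arrays of each group lay close together, and USP38 rose 1.91-fold (0.93 ± 0.14, limma's adjusted p = 0.0078 paired and 0.031 unpaired). USP35, its closest relative in the family, read 5.95 and 5.84 against 5.49 and 5.55. Its groups did not overlap either, but its change of 0.38 ± 0.15 did not pass (adjusted p = 0.141). USP18, the interferon-induced protease that removes ISG15 from proteins, changed by -0.24 and 0.23 in experiments 1 and 2. Its mean change was -0.00 ± 0.17, and its control arrays differed by more than its treated ones (6.57 and 6.02 against 6.32 and 6.25). ISG15 itself fell by 0.74 ± 0.16 (limma's adjusted p = 0.021), but did not pass in the unpaired fit (adjusted p = 0.059). USP25 (0.12 ± 0.16), USP31 (0.48 ± 0.14) and USP13 (0.33 ± 0.14) did not pass.

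USP39 was the risen member of the group at the proteasome, mitochondria and spliceosome, in which 1 of 4 tested rose. It lacks catalytic residues and is a part of the spliceosome's tri-snRNP, and its gene lies on chromosome 2. USP39 read 7.74 and 8.10 after anti-miR-191 and 7.26 and 6.77 in controls. The groups did not overlap, but the experiments differed in size (0.48 and 1.34). It rose 1.88-fold (0.91 ± 0.21, limma's adjusted p = 0.029), and did not pass in the unpaired fit (adjusted p = 0.079). USP14, which trims ubiquitin chains at the proteasome, read 6.57 and 6.20 after anti-miR-191 and 6.28 and 6.45 in controls, so its groups overlapped. USP30, which opposes mitophagy at the outer mitochondrial membrane, changed by -0.02 ± 0.15.

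USP4 was the risen member among those tied to TGF-beta and Wnt signalling, in which 1 of 4 tested rose. It deubiquitinates the type I TGF-beta receptor. USP4 read 7.04 and 6.99 after anti-miR-191 and 6.21 and 6.47 in controls. It rose 1.60-fold (0.68 ± 0.15, limma's adjusted p = 0.026 paired and 0.071 unpaired). Its paralogs USP15 and USP11 did not pass. USP15 read 4.50 and 4.59 against 3.86 and 4.46, a change of 0.64 in experiment 1 and 0.13 in experiment 2. USP11 read between 8.15 and 8.24 on all 4 arrays, a change of 0.04 ± 0.14. USP9X and USP34, very large members of the family, changed by 0.37 ± 0.14 and 0.38 ± 0.15 and were higher in both experiments. Neither passed (limma's adjusted p = 0.147 and 0.148 paired, and 0.271 and 0.316 unpaired). MCL1, a substrate of USP9X, rose 3.69-fold (limma's adjusted p = 0.0016 paired and 0.021 unpaired).

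USP4 and USP19 lie on the same chromosome as the miR-191 gene. In the RefSeq table of GRCh38.p14, 10 protein-coding genes lie between MIR191 and USP4 on chromosome 3, and USP19 is the fourth of them. USP19, anchored in the endoplasmic reticulum, read 7.72 and 7.96 after anti-miR-191 and 7.70 and 7.14 in controls, a change of 0.02 in experiment 1 and 0.82 in experiment 2 (adjusted p = 0.232). Of the 9 genes of this stretch that were tested, USP4 included, 2 rose and 0 fell, beside 10.1% and 3.77% of all genes, with a median change of 0.18. The stretch was drawn to end at USP4, which had risen, so USP4 was counted by choice. The share of risen genes therefore says nothing about the neighbourhood of MIR191. The other risen gene was QRICH1 (0.61). Neither passed in the unpaired fit (limma's adjusted p = 0.071 for USP4 and 0.164 for QRICH1).

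USP40, on chromosome 2, was the risen member among 3 tested that are inactive or little studied. It read 5.18 and 5.26 after anti-miR-191 and 4.41 and 4.76 in controls. It rose 1.56-fold (0.64 ± 0.15, limma's adjusted p = 0.031 paired and 0.099 unpaired).

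Of 4 tested members tied to endosomes, membranes and hypoxia 0 rose and 0 fell in limma's paired fit, with 2 higher and 0 lower without adjustment. USP8, which binds STAM and controls the sorting of the EGF receptor, read 4.59 and 4.40 after anti-miR-191 and 3.79 and 4.02 in controls. Its groups did not overlap, and its change of 0.59 ± 0.16 missed the threshold (adjusted p = 0.053). It passed under 3 of 9 alternatives, which ranged from 0.042 to 0.107. STAM rose 1.92-fold (limma's adjusted p = 0.0085 paired and 0.034 unpaired). STAM2 (-0.26), HGS (0.46) and EGFR (-0.04), on the same list of substrates and partners, did not pass. USP20, which acts on HIF1A and is itself bound by VHL, read 5.54 and 5.42 against 5.26 and 4.72, and its relative USP33 read 4.06 and 4.09 against 4.08 and 4.41. Their changes of 0.49 ± 0.16 and -0.17 ± 0.15 did not pass, and the difference between them was not tested.

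Of 11 tested members that act on histones and chromatin, 0 rose and 0 fell in limma's paired fit, with 2 higher and 0 lower at an unadjusted p under 0.05. USP22, the catalytic subunit of the deubiquitinase module of the coactivator SAGA, read 8.80 and 8.90 after anti-miR-191 and 8.25 and 8.52 in controls. Its groups did not overlap, and its change of 0.46 ± 0.15 did not pass (adjusted p = 0.081). USP27X and USP51, which can use the same module, changed by 0.32 ± 0.15 and -0.05 ± 0.14. USP3, which acts on histone H2A, changed by 0.48 ± 0.14 (adjusted p = 0.067). USP7, which controls MDM2 and p53, read 7.95 and 7.74 against 7.24 and 7.73, a change of 0.71 in experiment 1 and 0.01 in experiment 2. USP21 had the lowest mean change among the tested members (-0.20 ± 0.16), and its 2 anti-miR-191 arrays (7.08 and 7.12) lay below its controls (7.47 and 7.13) by a narrow margin.

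USP12 and USP46, which work with the cofactor WDR48, did not pass, and the probe sets of USP12 disagreed. The brighter row of USP12, used by the rule, read 4.69 and 4.35 after anti-miR-191 and 4.50 and 4.86 in controls, with a change of -0.16 ± 0.19. The dimmer row read 4.59 and 4.97 against 3.80 and 4.27, a change of 0.79 and 0.70 in experiments 1 and 2. With that row USP12 would have passed (adjusted p = 0.016 paired and 0.121 unpaired, with 0.016 to 0.712 over the alternatives of the paired fit), so no direction is given for USP12. USP46 changed by 0.05 ± 0.16. USP1, the third partner of WDR48 and a regulator of PCNA and FANCD2 in DNA repair, changed by 0.28 in experiment 1 and -0.10 in experiment 2. Of the 5 tested members tied to DNA repair and replication, 0 rose and 0 fell in limma's paired fit, also at an unadjusted p under 0.05. Besides USP1 these were USP28 (-0.14), USP37 (0.07), USP47 (0.17) and USP48 (0.25).

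The remaining tested members did not pass either. USP43 and USP54 changed by 0.34 each, and USP49 and USP16 by -0.07 and 0.06. Of the 41 tested, the highest intensities in controls were those of USP22, USP11, USP5 (8.11), USP31 (7.50) and USP7 (7.48), and the lowest those of USP16 (3.46), USP37 (3.78), USP8 (3.90), USP47 (3.95) and USP28 (4.09), which is no order of abundance. The 8 protease genes left out as dim were USP6, USP26, USP29, USP44, USP45, USP50, USP53 and USP9Y. Apart from USP9Y, whose level is not given, their mean over the 4 arrays lay between 2.49 (USP26) and 3.34 (USP6). Just above the limit of 3.41 lay USP16, with a mean of 3.49. The noncoding USP27X-DT read 4.54 and 3.72 after anti-miR-191 and 3.97 and 3.90 in controls.

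**Figure D2:**
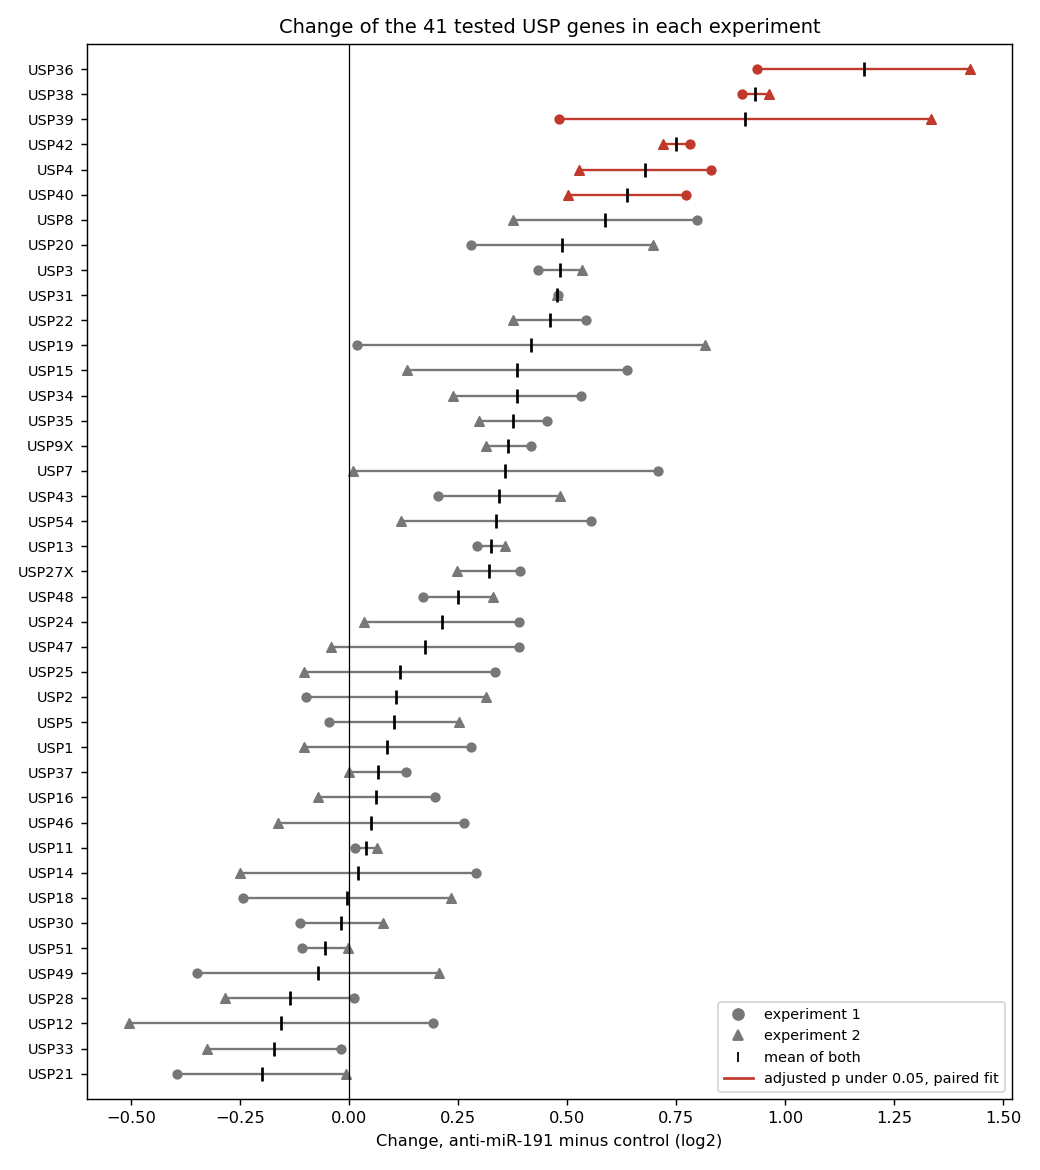
Change after anti-miR-191 (log2, horizontal axis) of each of the 41 tested USP genes in experiment 1 (circles) and experiment 2 (triangles), with the mean of both as a black tick and the 6 genes that rose in red. The means run from -0.20 (USP21) to 1.18 (USP36), and 33 of 41 lie above 0.

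The mean change was above 0 for 33 of 41 (80.5%), against 51.4% of all genes tested. The median change was 0.32 over the USPs (0.29 in experiment 1 and 0.24 in experiment 2) and 0.01 over all genes. For 22 USPs both anti-miR-191 arrays lay above both controls (53.7%, background 29.4%), and for 1, USP21, both lay below (2.44%, background 23.8%). After quantile normalization, 21 USPs lay above and 2 below (background 25.6% and 26.7%), and the median change was 0.22 against -0.02 over all genes. In both experiments 25 USPs were higher and 3, USP21, USP33 and USP51, were lower, against 36.5% and 33% of all genes. USP36, USP38 and USP42 were at least 1.5-fold higher in each experiment (3 of 41, 7.32%, background 6.45%), and 0 members were that much lower (background 2.22%). These are counts over genes measured on the same 4 arrays, and they do not set the family apart from other genes by a test.

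**Figure D3:**
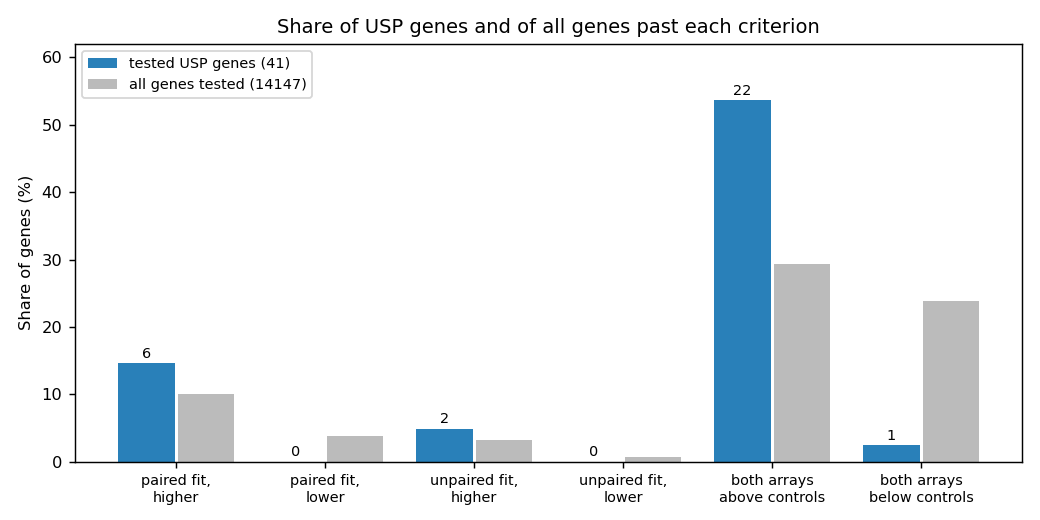
Share of genes (percent, vertical axis, from 0) past each of 6 criteria among the 41 tested USP genes (blue, with the number of genes above each bar) and among all 14147 genes tested (grey). The bars for the paired fit, higher, stand at 14.6% and 10.1%, and those for both anti-miR-191 arrays above both controls at 53.7% and 29.4%.

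Across the 41 tested USPs the changes of experiments 1 and 2 had Pearson r = 0.462 and Spearman rho = 0.488, a description across genes of the same arrays. Over all 14147 genes r was 0.678. The signed change was higher in experiment 1 for 24 USPs and in experiment 2 for 17, against 6893 and 7254 of all genes. Signs were kept in these counts, so they do not tell which change was larger in size. USP39 and USP19 had their larger change in experiment 2, and USP7, USP15 and USP54 in experiment 1. No USP changed by 0.3 or more in opposite directions in the experiments.

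**Figure D4:**
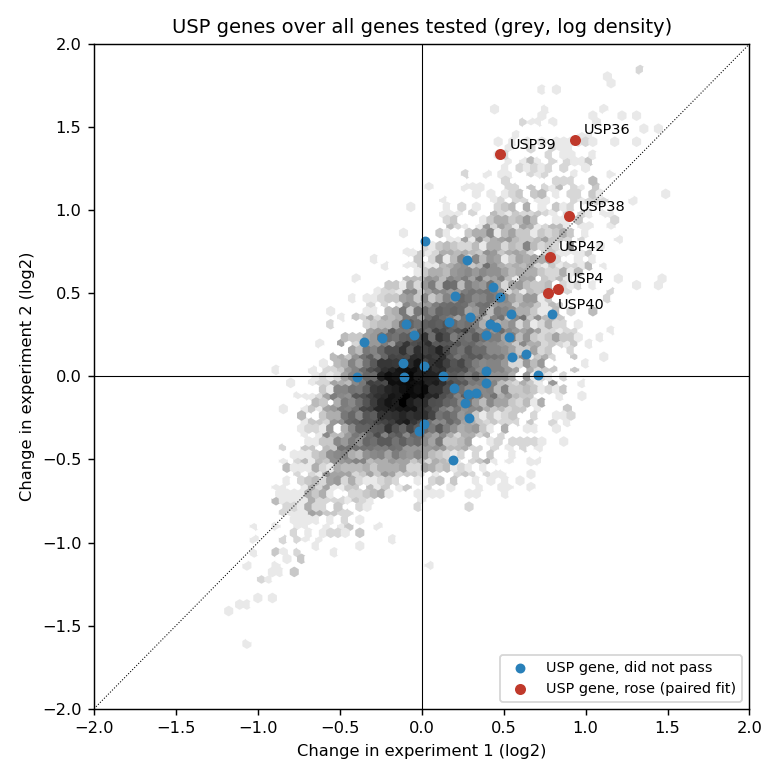
Change in experiment 1 (horizontal axis, log2) against change in experiment 2 (vertical axis, log2) for the 41 tested USP genes, over the density of all genes tested (grey, on a log scale). The 6 risen genes (red) lie in the upper right quadrant, with USP39 at 0.48 and 1.34, and the axes end at 2, so genes beyond are not drawn.

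The control levels of the risen members ran from 4.58 (USP40) to 7.02 (USP39), and over the 41 the change and the control level had Spearman rho = 0.237, a description over genes. With the control levels of all tested genes divided into 3 equal parts, 1 of 14 USPs rose in the lowest, 4 of 19 in the middle and 1 of 8 in the highest, where 6.17%, 12.7% and 11.4% of all genes rose. The genomic spans of the risen genes had a median of 58.5 kb (39.0 to 91.3 kb), and those of the other 35 tested a median of 71.8 kb (3.08 to 283.6 kb), in the RefSeq table of GRCh38.p14.

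Bases upstream of the start site are shown for the 4 risen members with a GC box, so that the letters their promoters share can be seen. RefSeq's promoter table held 37 of the 49 protease genes, and USP42 was not among them. Each line gives the 250 bases before the annotated start, 5' to 3' on the gene's strand. Capitals mark GC boxes (GGGCGG), the E-box (CACGTG) in USP36 and the ETS motif (CCGGAAG) in USP38, on either strand. USP36 lies at chr17:78840815-78841064 (minus strand), USP38 at chr4:143184667-143184916 (plus), USP39 at chr2:85602611-85602860 (plus) and USP4 at chr3:49340054-49340303 (minus), all on GRCh38.p14.
USP36: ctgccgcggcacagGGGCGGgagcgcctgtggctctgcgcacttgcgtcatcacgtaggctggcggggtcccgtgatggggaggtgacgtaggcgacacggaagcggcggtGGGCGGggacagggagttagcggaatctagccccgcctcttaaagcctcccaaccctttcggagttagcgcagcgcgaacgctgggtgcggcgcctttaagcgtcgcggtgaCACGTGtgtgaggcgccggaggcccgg
USP38: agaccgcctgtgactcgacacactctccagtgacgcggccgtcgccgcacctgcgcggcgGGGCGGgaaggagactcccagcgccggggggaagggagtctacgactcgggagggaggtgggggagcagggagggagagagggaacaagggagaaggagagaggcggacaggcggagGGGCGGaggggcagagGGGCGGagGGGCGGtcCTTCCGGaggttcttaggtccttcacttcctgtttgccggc
USP39: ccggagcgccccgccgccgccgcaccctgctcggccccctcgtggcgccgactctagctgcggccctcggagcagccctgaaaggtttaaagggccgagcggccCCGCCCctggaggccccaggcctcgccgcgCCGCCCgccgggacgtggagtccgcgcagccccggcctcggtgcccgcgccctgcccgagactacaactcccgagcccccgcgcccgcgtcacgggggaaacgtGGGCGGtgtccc
USP4: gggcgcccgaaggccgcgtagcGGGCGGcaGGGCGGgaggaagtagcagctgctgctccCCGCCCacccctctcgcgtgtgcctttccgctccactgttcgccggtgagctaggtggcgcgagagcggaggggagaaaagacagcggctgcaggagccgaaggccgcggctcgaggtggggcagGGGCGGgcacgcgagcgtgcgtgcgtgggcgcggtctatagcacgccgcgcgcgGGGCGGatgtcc
These 4 were chosen for their GC boxes, so sharing them is no result. The other risen gene with a promoter, USP40, had no GC box and was the only risen gene whose window held TATAAA (11.1% of all promoters). GC boxes were found in 25 of the 32 tested USPs with a promoter (78.1%) and in 42.3% of all 27305 promoters, so they are common to the family's windows. The 27305 include promoters of genes that were not tested here, so they are an unlike set for each motif below as well. The ETS motif was found in 8 of the 32 (25%, against 8.815% of all promoters), and among the risen only in USP38. The E-box was found in 2 of the 32 (6.25%, against 6.49%). Neither the AP-1 motif TGANTCA nor the CRE TGACGTCA was found in any of the 32 windows (6.60% and 1.765% of all promoters). Such matches are letters in a window and say nothing about binding. The median GC content was 69.6% over the 5 risen genes with a promoter, 70.0% over the 32 tested USPs and 58.0% over all promoters.

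Other deubiquitinases and their partners are given from lists of the ubiquitin system, beside the 10.1% of all genes that rose and 3.77% that fell. Of 16 tested genes of the OTU family, 2 rose and 0 fell, namely TNFAIP3, an inhibitor of NF-kB (5.22-fold), and OTUB2 (1.51-fold). CYLD, on the same list, was dim and not tested. Of 8 genes of the UCH, MJD and MINDY families and ZUP1, JOSD1 rose (1.64-fold, with changes of 0.65 and 0.78) and 0 fell. Of 10 JAMM metalloproteases and relatives, COPS5, the catalytic subunit of the COP9 signalosome, rose 1.65-fold, and MPND fell by 0.71 ± 0.14. Of these 5 genes only TNFAIP3 also passed in the unpaired limma fit (adjusted p = 0.023, against 0.120 for OTUB2, 0.053 for JOSD1, 0.129 for COPS5 and 0.093 for MPND). Of 6 SUMO proteases 0 rose and 0 fell in limma's paired fit, with 2 higher and 1 lower at an unadjusted p under 0.05. The median changes of these lists were 0.32, 0.04, 0.09 and 0.29.

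Of 8 ubiquitin and E1 genes tested 0 rose and 0 fell in limma's paired fit, also at an unadjusted p under 0.05, with a median change of 0.20. Of 25 E2 genes 4 rose and 1 fell. UBE2E1 rose 1.87-fold, although its groups overlapped (6.49 and 7.30 after anti-miR-191, 5.39 and 6.58 in controls). UBE2O rose 1.76-fold, BIRC6 1.51-fold and UBE2Q1 1.48-fold, whereas UBE2C, which works with the anaphase-promoting complex in mitosis, fell by 0.64 ± 0.14. Of these 5 only UBE2O also passed in the unpaired limma fit (adjusted p = 0.045, the others between 0.088 and 0.291).

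Of 8 tested genes of the SAGA coactivator and its deubiquitinase module, TADA2B rose 2.02-fold (limma's adjusted p = 0.0097 paired and 0.037 unpaired) and 0 fell. Of 7 genes of the WDR48 complexes 0 rose and 0 fell in limma's paired fit, also at an unadjusted p under 0.05. Of 30 substrates and partners tested, 5 rose and 1 fell, the last being ISG15. Besides MCL1 and STAM these were MYC (3.36-fold), a substrate of USP36, the cell cycle phosphatase CDC25A (2.19-fold) and VHL (1.74-fold). MYC, MCL1 and STAM also passed in the unpaired limma fit, and CDC25A (adjusted p = 0.069), VHL (0.085) and ISG15 did not. Transcript levels of substrates do not measure USP activity, and no protein was measured.

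**Figure D5:**
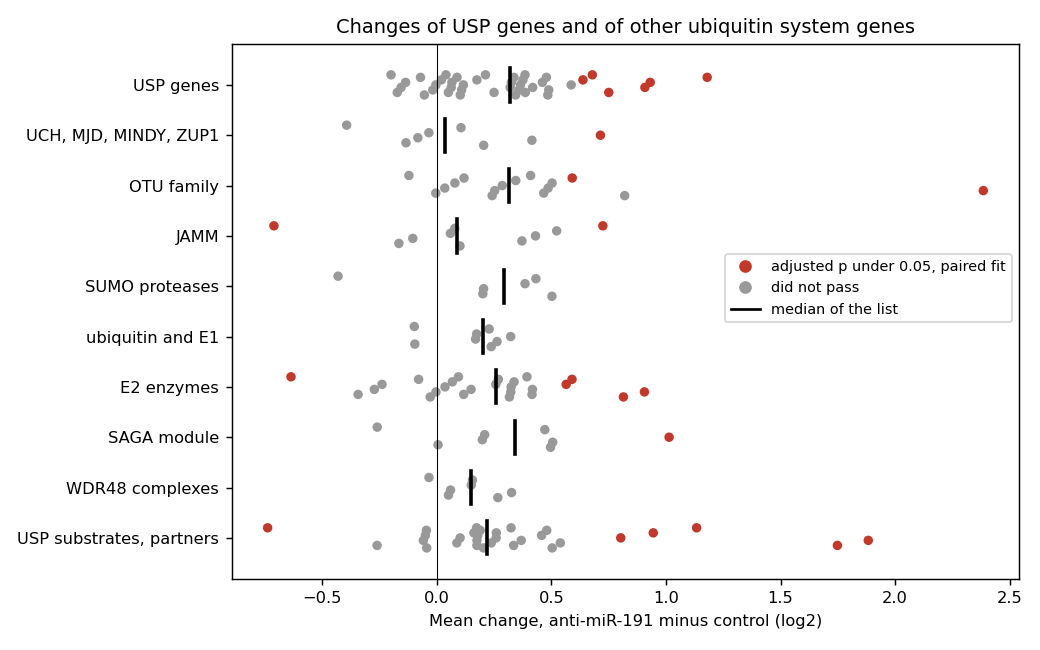
Mean change after anti-miR-191 (log2, horizontal axis) of each tested USP gene and of each tested gene of 9 other lists of the ubiquitin system, with genes past the threshold of the paired fit in red and the median of each list as a black line. The median lies at 0.32 for the USP genes and for the OTU family, and at 0.04 for the UCH, MJD and MINDY families with ZUP1.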

How the data were processed

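Total RNA of 4 HepG2 cultures, 2 per group, was labelled with biotin and hybridised to 1-colour Affymetrix arrays, per the labels. The authors deposited RMA values on the log2 scale from Expression Console, as the submitters' processing notes name these tools. No source used here gives the version, and the base of the logarithm rests on RMA's usual output. Arrays have no counting depth, so their number limits the precision.

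GEO's platform annotation gave 1 symbol for 19460 of 33297 rows. The 33.3% of rows with the lowest mean were left out as dim, which left 14147 genes. Tests were two-sided limma 3.58.1 fits (lmFit and eBayes, R 4.3.3) with Benjamini-Hochberg adjusted p. The paired fit has 1 residual and 6.60 prior degrees of freedom, the unpaired fit 2 and 4.32. An unblocked fit is the usual default. The paired one was made the main fit because the series text calls the duplicates independent studies and the titles number both groups, and it was chosen with its larger number of calls over all genes already known (1428 higher and 533 lower, against 452 and 101 unpaired). Same-numbered arrays deviated together from their group means (r = 0.335 over genes), a single value at 2 arrays per group. The p-values measure only the spread between these arrays.

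Both fits were tested on simulated data under 2 noise models. With spreads drawn from limma's fitted prior, false calls of the paired fit were few, if often above the nominal share. With wider spreads, the model written first, they were well above it and varied between draws. The unpaired fit made almost no false calls under either and missed most changes of 2-fold. In both models far fewer genes were changed than either fit called in these data. The shares of false and missed calls depend on that number, so they may differ here. The second model was added after the outcome of the first was seen.

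The members and lists were chosen with earlier results of these data known. Named genes were members past the threshold in either fit and their paralogs, the 5 highest and 5 lowest control levels, members changed by 0.3 or more in opposite directions, a fixed set (USP1, USP7, USP8, USP9X, USP14, USP18, USP22 and USP30) and up to 6 called genes of each list. Values printed for other members and for QRICH1 were added after they were seen. So were the motifs and promoters, the count of USP27X-DT as noncoding, the other row of USP12 and the scalings for counts of non-overlapping groups. Alternatives changed the block, filter, scaling, moderation, rows and thresholds, or left out an array. Figures used matplotlib 3.10.9.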

Additional observations from a re-analysis of the deposited data

How the results depend on the processing

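Leaving out the replicate block, and so comparing the groups alone, reduced the USPs called higher from 6 to 2, with USP39, USP42, USP4 and USP40 losing their call. An adjusted p under 0.01 left 2 in the paired and 0 in the unpaired fit (11 at an unadjusted p under 0.05 in limma's unpaired fit), where 3.05% and 0% of all genes were higher. After quantile normalization the paired fit kept 3, with adjusted p between 0.054 and 0.076 for USP39, USP4 and USP40. Without single arrays the unpaired count ranged from 0 to 1. It was 1 (USP36) when the treated array of experiment 1 was dropped and 0 when any one of the other 3 was. In those 3 settings limma called 0 of all 14147 genes, so the count of 0 says nothing about the USPs, and 6 to 15 USPs were higher at an unadjusted p under 0.05. The single array left in a group is assumed to vary like the other group. The paired fit has no residual degree of freedom without an array and was not run that way. USP36 and USP38 passed under each of 10 alternatives of the paired fit (adjusted p up to 0.031). The count of lower USPs was 0 in each setting. At least 2-fold in both experiments left 0 USPs. The median change of 0.32 was 0.27 after cyclic loess, 0.22 after quantile normalization and 0.17 with dim rows kept. The count with both anti-miR-191 arrays below both controls was 2 after median centring and after quantile normalization, settings chosen for this count after seeing the data. Uncalled members near 0 changed sign. USP11 was at -0.012 and USP14 at -0.10 after quantile normalization, and USP14 at -0.039 after cyclic loess. USP12 was at 0.74 with its dimmer row, an alternative chosen after seeing the data, and at 0.29 as the mean of its rows. Without single arrays, in the unpaired fit, changes ranged from -0.033 to 0.21 for USP1, -0.33 to 0.022 for USP12, -0.16 to 0.20 for USP14, -0.13 to 0.25 for USP16, -0.28 to 0.27 for USP18, -0.077 to 0.042 for USP30, -0.00015 to 0.13 for USP37 and -0.081 to 0.29 for USP5. The cause of these shifts was not tested. The limit throughout is 2 arrays per group.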
